A study of Mus musculus with 2 samples.

Results

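The transcript that carries microRNA miR-155 and the genes beside it on mouse chromosome 16 were compared between dendritic cells with and without miR-155. The list held 10 genes: the host transcript Mir155hg and 9 protein-coding genes on either side of it (Samsn1, Nrip1, Usp25, Cxadr and Btg3 before it, Mrpl39, Jam2, Gabpa and App after it). They were taken by gene symbol, with every probe set (a group of short array probes read out as 1 value) that the platform annotation assigns to exactly 1 gene. The rule found 28 probe sets of 9 genes, out of 34945 probe sets of 18193 genes on the arrays. The annotation's probe set for Btg3 names another gene as well, so Btg3 has no value of its own here. The genes were picked with results of this same contrast in view, so the values below are a description and carry no test.

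The wild-type group was bone-marrow-derived dendritic cells of C57BL/6J mice. The knockout group was the same kind of cells from mice of that strain lacking miR-155 (miR155-/-). Each group had 1 array, both from cells cultured with 20 ng/ml GM-CSF for 7 days and then given medium with 10 ng/ml lipopolysaccharide (LPS), and there were no untreated cells. The labels call the cells dendritic cells, while their growth protocol speaks of macrophages. The sources used here do not give how the allele was made, how many mice were used, or how long LPS was present. With 1 array per genotype there is no replicate, and no difference between the arrays can be set against the spread between samples.

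miR-155 is cut from a hairpin in Mir155hg, a noncoding transcript that inflammatory signals induce through NF-kB and AP-1 factors. In myeloid cells and lymphocytes the mature microRNA represses messages that pair with its seed, the bases near its 5′ end. Its neighbours on the chromosome are known for unrelated work, among them mitochondrial translation, cell junctions, deubiquitination and amyloid precursor protein.

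The sequences of the hairpin and its products are shown because they are what the knockout lacks. They are from RefSeq (GRCm38.p6, plus strand), the hairpin at chr16:84714140-84714204, the 5p arm at chr16:84714143-84714165 and the 3p arm at chr16:84714182-84714202. Capitals mark the mature arms in the hairpin and the seed (bases 2 to 8) in each arm.
Mir155 hairpin: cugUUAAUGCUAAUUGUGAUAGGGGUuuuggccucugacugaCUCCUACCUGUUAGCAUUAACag
mmu-miR-155-5p: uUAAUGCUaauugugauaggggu
mmu-miR-155-3p: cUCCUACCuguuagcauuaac
Each of these seeds belonged to 1 of the 1738 mature mouse microRNAs in the table, so no other microRNA there shares the seed of either arm.

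Mir155hg and Mrpl39 stand next to each other and run towards each other, on the plus and the minus strand. Their 250 bases before the transcript start are shown because, of the listed genes, their knockout signals lay furthest below wild type. The Mir155hg window (chr16:84712773-84713022, plus strand) was 33.2% G or C and held 0 CpG pairs. The Mrpl39 window (chr16:84735245-84735494, minus strand) was 67.2% G or C with 28 CpG pairs. The median promoter of the table was 52.4% G or C with 6 CpG pairs.
Mir155hg: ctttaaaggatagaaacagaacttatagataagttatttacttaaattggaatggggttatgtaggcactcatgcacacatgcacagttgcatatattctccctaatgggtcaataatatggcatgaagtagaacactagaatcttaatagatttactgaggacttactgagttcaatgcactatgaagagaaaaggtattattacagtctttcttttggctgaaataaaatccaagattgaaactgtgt
Mrpl39: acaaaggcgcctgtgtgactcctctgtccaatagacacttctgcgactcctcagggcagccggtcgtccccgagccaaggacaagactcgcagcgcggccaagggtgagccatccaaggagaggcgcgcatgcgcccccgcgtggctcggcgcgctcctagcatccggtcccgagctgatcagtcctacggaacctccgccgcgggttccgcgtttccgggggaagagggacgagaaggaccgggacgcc
Neither window holds, on either strand, the kappa-B consensus, the AP-1 letters TGANTCA, the ETS letters CCGGAAG or the TATA box letters TATAAA, and so nothing is in capitals. Over the 32851 promoter windows of this length, 7.25% held the kappa-B consensus, 6.75% the AP-1, 6.91% the ETS and 12.4% the TATA letters. Promoters of 8 of the 10 genes were in the table. Among them Gabpa held 1 ETS match and Btg3 1 kappa-B match. A match is a run of letters and no proof of binding, and a missing match says only that the letters are not in these 250 bases.

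The deposited values had no common scale. Medians were 58.4 on the wild-type and 78.3 on the knockout array (intensity, arbitrary units), and the median gene was 0.54 higher (log2) in the knockout before scaling. All values were therefore quantile normalized, so differences (knockout minus wild type, log2) are relative to the bulk of genes. A normalized intensity of 67.6, the median of all values, served as a floor. A probe set was measured where at least 1 array lay above it, and where the other lay at or below it the difference is a bound, written "at least". The only error that can be estimated is the disagreement between probe sets of 1 gene, an SD of 0.29. A like-level range is also given, the middle 95% of differences among the 501 probe sets nearest in mean signal. Of the 28 probe sets 16 were measured, 13 of them on both arrays and 3 on the wild-type array alone. All 5 of Cxadr, 3 of Jam2, 2 of Nrip1 and 2 of App stayed at or below the floor on both.

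Of the 16 measured probe sets 13 were lower and 3 higher in the knockout. The share of lower values over all measured probe sets was 49.1%. At least 2-fold lower were 5 probe sets, from Mir155hg, Mrpl39, Jam2 and Nrip1, against 0.665% of the 20607 measured over the arrays. None was at least 2-fold higher, against 0.636%. By gene, 3 of 8 measured genes passed 2-fold, all lower, where 0.615% of 11878 genes were lower and 0.572% higher by that size. The 3 probe sets above the floor on the wild-type array alone could count as lower only. Since the genes were chosen on this contrast, nothing is read from these shares.

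**Figure D1:**
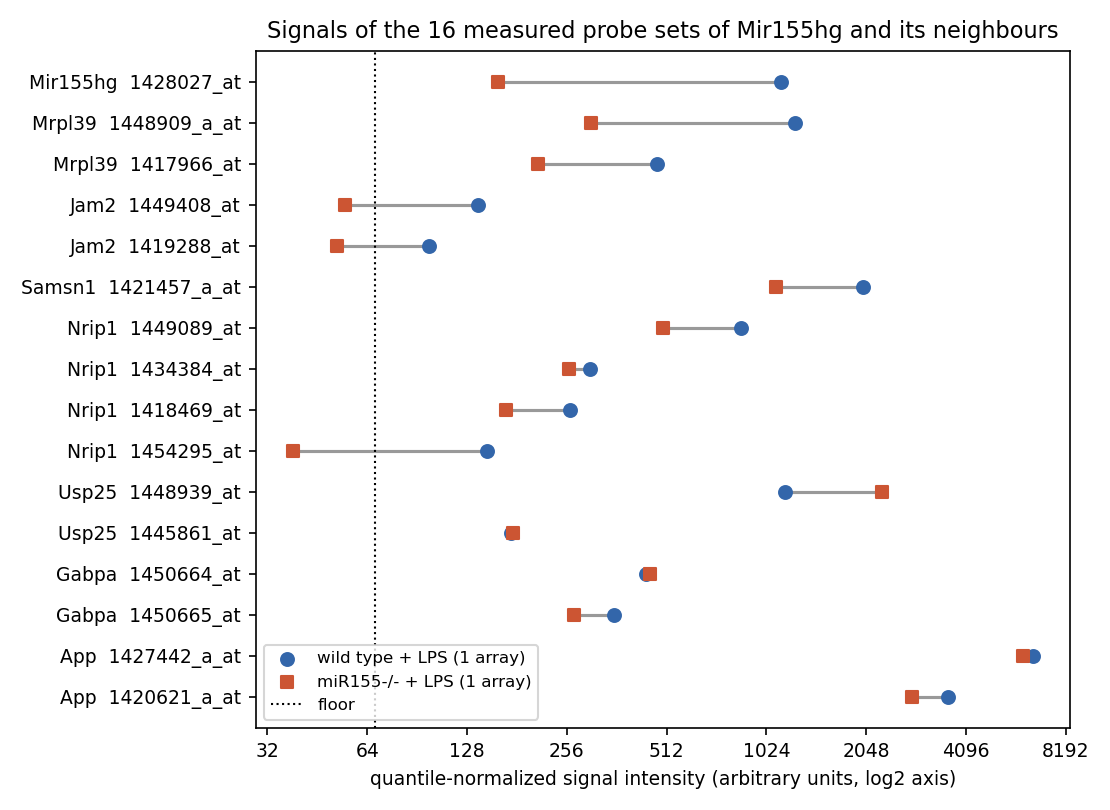
Quantile-normalized intensity (log2 axis, arbitrary units) of each of the 16 measured probe sets on the wild-type array (circles) and the knockout array (squares), 1 array each, with the floor of 67.6 as a dotted line. Mir155hg lay at 1136 and 159 and Mrpl39 at 1248 and 302 in 1 of its probe sets, while 1 Usp25 probe set lay the other way, at 1162 and 2282.

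The host transcript, the deleted locus, was read first. Mir155hg (1428027_at) had deposited intensities of 922.1 (wild type) and 192.3 (knockout). After normalization these were 1136 and 159.3, a 7.13-fold lower signal in the knockout (-2.83). It was the lowest of the 501 probe sets of like level, whose range ran from -0.68 to 0.61. The knockout signal was still above the floor. The sources used here do not say whether the probes lie inside the deleted stretch, so how far this value checks the label is unknown.

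Mrpl39 encodes a protein of the large subunit of the mitochondrial ribosome, and is the first protein-coding gene after Mir155hg. Its probe set 1448909_a_at read 1015 and 368.1 as deposited, and 1248 and 301.9 after normalization, 4.13-fold lower (-2.05). It too was the lowest of its 501 like-level probe sets. The other, 1417966_at, read 387.5 and 254.7 as deposited and 477.6 and 210.1 after normalization, 2.27-fold lower (-1.18), and 1 of its 501 like-level probe sets was lower. Both were designed on the same transcript record, so they share a target. They differed from each other by 0.86, more than the probe set SD, while each lay outside its like-level range.

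Differences of the other mitochondrial ribosomal protein genes lay closer to 0. All 76 mitochondrial ribosomal protein genes on the arrays were measured, 33 lower and 43 higher in the knockout, with a median of 0.03 beside 0.01 over all measured genes. On the deposited values, under the shift of 0.54, 1 of 76 was lower. Without Mrpl39, the SD over the other 75 was 0.24 and they ran from -0.59 (Mrps30) to 0.60 (Mrpl47). Mrpl20 (-0.59) and Mrpl38 (0.53) came next in size. After normalization Mrpl39 was the gene with the lowest difference and the 1 past 2-fold among these 76. It was chosen on this contrast, so no test is attached.

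**Figure D2:**
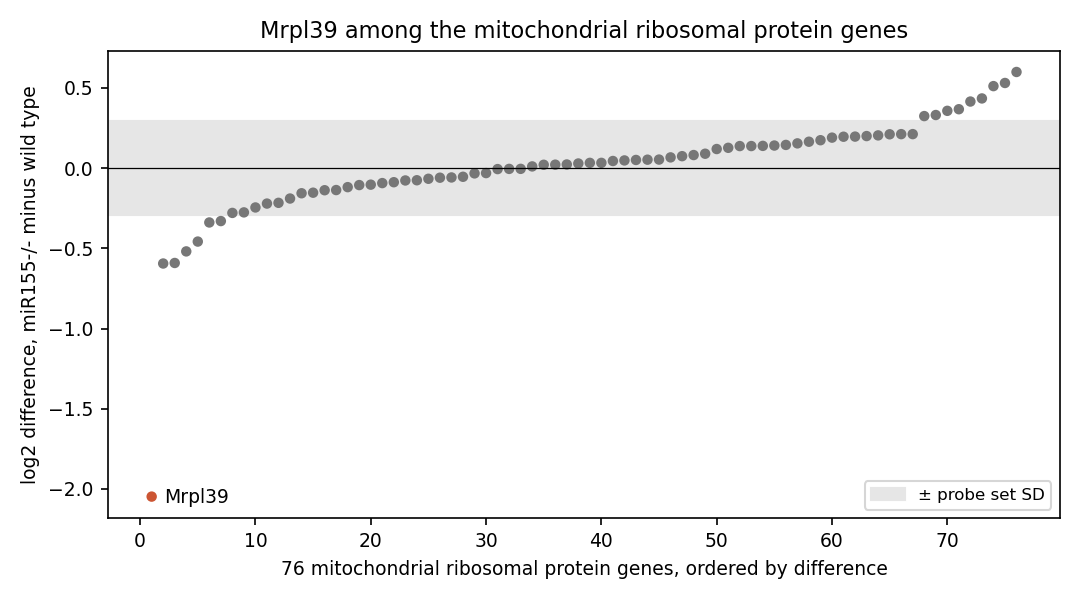
Log2 difference (knockout minus wild type, quantile normalized, 1 array each) of the 76 mitochondrial ribosomal protein genes, ordered from lowest to highest; the grey band is the probe set SD of 0.29 on either side of 0. Mrpl39 at -2.05 lies apart from the others, which run from -0.59 to 0.60.

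Jam2 encodes a junctional adhesion molecule of endothelial cells and lymphoid stroma, and follows Mrpl39. It lay near the floor. Probe set 1449408_at read 115.7 and 62.9 as deposited, and 138.3 in wild-type cells after normalization against a knockout value under the floor, at least 2.05-fold lower. Probe set 1419288_at read 83.1 and 59.4 as deposited and was at least 1.45-fold lower. Both were designed on the same transcript record. The other 3 probe sets lay under the floor on both arrays, with deposited intensities of 52.3 and 8.88, 38.1 and 6.21, and 2.43 and 5.09 in wild type and knockout, and their order is not read.

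Of 13 adhesion molecules of the JAM and CTX families, 5 were measured, 2 of them lower and 3 higher (1 of 7 lower on the deposited values). F11r, which encodes the related molecule JAM-A, had a difference of 0.18, and the adhesion gene Clmp one of 0.18 (1602 and 1818). Jam3 was above the floor in knockout cells only, at 71.3, and the co-inhibitory receptor gene Vsir had a difference of -0.09. Of 8 endothelial markers 1 was measured, the growth factor receptor gene Kdr, at 118.1 in wild-type cells and at least 1.75-fold lower in the knockout. Pecam1, Cdh5, Tie1, Tek, Emcn, Esam and Cldn5 were at or below the floor on both arrays. Of 8 stromal markers 7 were measured, 3 lower and 4 higher, with summed signals of 9046 and 5939, most of it from Thbs1 (8507 and 5408). Lum was above the floor in wild-type cells only and could count only as lower. Col1a1 and Pdgfra were above it in knockout cells only and could count only as higher. The part of endothelial and stromal cells in the Jam2 value was not tested. In bulk RNA, fewer cells of a type and less RNA per cell cannot be told apart.

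Before Mir155hg, the listed genes that were measured are Samsn1, Nrip1 and Usp25, in that order along the chromosome. Samsn1 encodes an adaptor protein of blood cells that restrains B cell receptor signalling. Its single probe set (1421457_a_at) read 1622 and 1349 as deposited and 1996 and 1095 after normalization, 1.82-fold lower (-0.87). Of its 501 like-level probe sets 2 were lower. On the deposited scale the difference was -0.27.

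Nrip1 encodes RIP140, a corepressor of nuclear receptors that also assists NF-kB in macrophages. Probe set 1449089_at read 697.2 and 615.0 as deposited and 858.5 and 499.1 after normalization, 1.72-fold lower (-0.78), and 5 of its 501 like-level probe sets were lower. The probe set 1418469_at, designed on the same record, read 262.4 and 167.4 (-0.65), inside its like-level range of -0.78 to 0.72. Probe set 1434384_at, from another record, read 301.3 and 260.6 (-0.21), within the probe set SD. Probe set 1454295_at was at 147.5 in wild-type cells and under the floor in the knockout, at least 2.18-fold lower. All 4 measured probe sets were lower after normalization, but 1434384_at had a difference of 0.36 without scaling and of 0.03 with scaling on hybridisation controls. The remaining Nrip1 probe sets lay under the floor on both arrays, and their order is not read. As deposited, 1447211_at read 39.4 and 10.1. The probe set 1432603_at, designed on the same record as 1454295_at, read 3.55 and 45.6.

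Usp25 encodes a deubiquitinase that acts on TRAF adaptors in innate signalling. Its probe set 1448939_at read 942.8 and 2805 as deposited and 1162 and 2282 after normalization, 1.96-fold higher (0.97). It was the highest of its 501 like-level probe sets, and was past 2-fold under 3 of the 5 scalings. The other probe set, 1445861_at, from a different record, read 173.9 and 176.0, a difference of 0.02. These differed by 0.96, more than the probe set SD of 0.29, so the direction for Usp25 rests on 1 probe set.

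**Figure D3:**
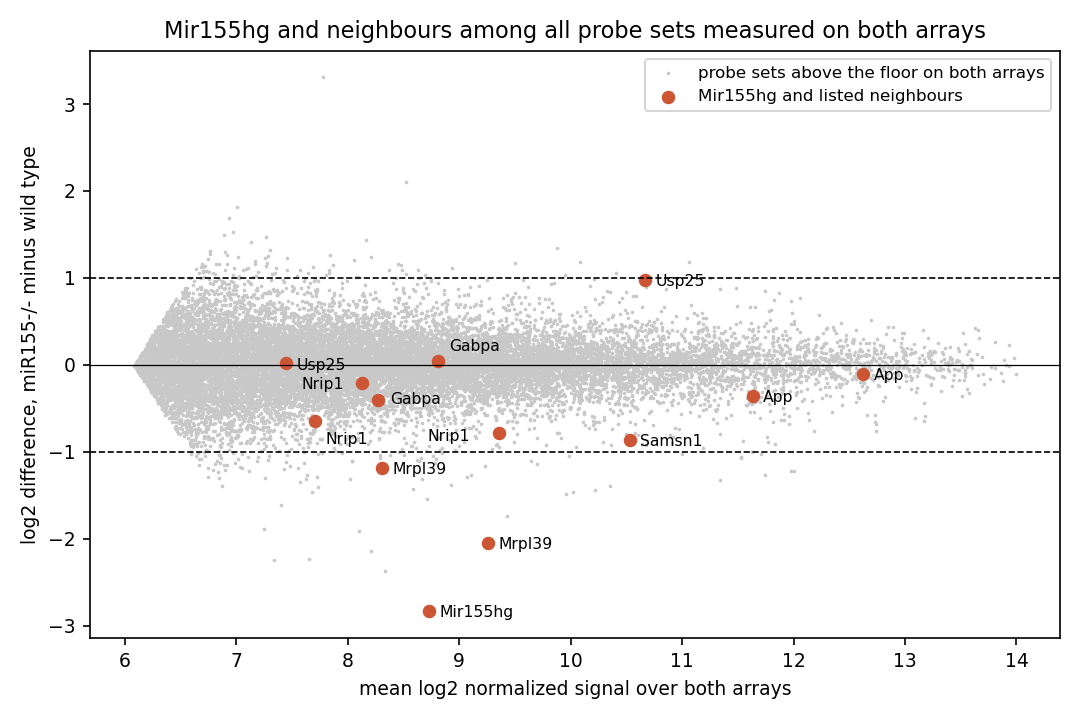
Log2 difference (knockout minus wild type) against mean log2 normalized signal for all probe sets above the floor on both arrays (grey) and for Mir155hg and its listed neighbours (orange), with dashed lines at 2-fold. Mir155hg (-2.83) and Mrpl39 (-2.05 and -1.18) lie below the lower line, and 1 Usp25 probe set (0.97) lies just under the upper one.

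After Jam2 the listed genes were nearer 0. Gabpa encodes the DNA-binding subunit of GABP, an ETS factor of mitochondrial genes. It read 443.9 and 456.5 in 1 probe set (1450664_at, 0.04) and 355.3 and 268.7 in the other (1450665_at, -0.40). App, the amyloid precursor protein gene, read 6533 and 6090 (1427442_a_at, -0.10) and 3602 and 2811 (1420621_a_at, -0.36). All 4 lay inside their like-level ranges. Without scaling each of these 4 was higher in the knockout, by 0.17 to 0.63. Cxadr, a tight junction protein and virus receptor gene, was at or below the floor in all 5 probe sets, whose deposited intensities ran from 2.16 to 41.9 (wild type) and from 6.78 to 72.4 (knockout).

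In the order of all measured genes on the chromosome, Mir155hg, Mrpl39 and Jam2 follow one another directly. The next was Atp5j, an ATP synthase subunit gene, at -0.23 (2590 and 2212), then Gabpa and App. On the other side the nearest was D16Ertd472e at 0.32, with 2 of its 4 probe sets lower, then Usp25, Nrip1, Samsn1 and Hspa13, an Hsp70-type chaperone gene, at -0.22 with 3 of 3 probe sets lower. Between Samsn1 and App the reference lists 74 genes, 14 of them protein-coding. Of those 14, 13 had a probe set of their own, and Cxadr, Chodl, Tmprss15 and Ncam2 were not measured. Atp5j, D16Ertd472e and Hspa13 are named for their position.

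The 15 measured genes on each side, Mir155hg left out, had a median of 0.11, and 20 of 30 were higher, where 51.5% of all measured genes were. The median absolute difference was 0.28, against 0.19 over all measured genes, and the SD was 0.63 against 0.34. With 5 genes on each side the median was -0.23 and the SD 0.83. Without the listed genes, the 23 others in the window had an SD of 0.37, and over the rest of chromosome 16 (359 genes) it was 0.33. Of these 23, 18 were higher, but 4 of the 18 (Robo1, Adamts5, Krtap19-1 and Krtap7-1) were above the floor in knockout cells only and could count only as higher. Bach1, a transcriptional repressor and reported miR-155 target, was the one past 2-fold, from 721.4 to 1631 (1.18), with its other probe set at -0.28. Zfp654 (0.71), Robo1 (at least 1.60-fold higher) and Krtap19-1 (at least 1.56-fold higher) followed in size.

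**Figure D4:**
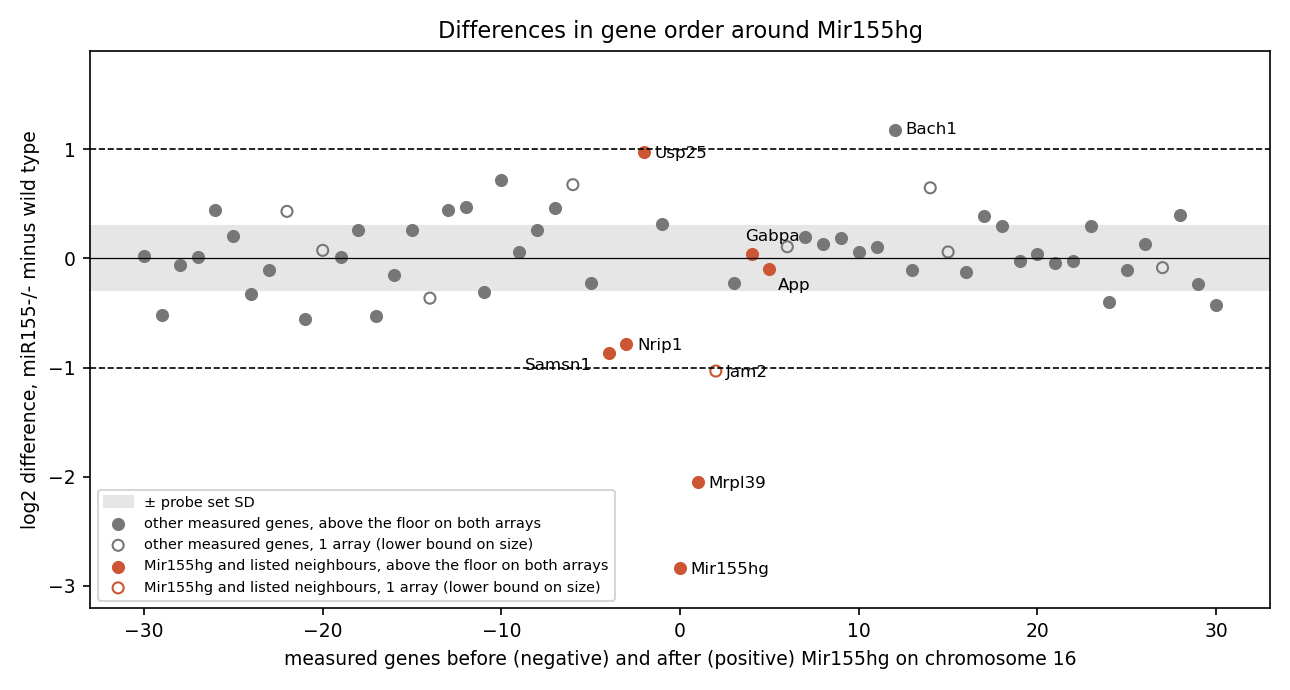
Log2 difference (knockout minus wild type) of Mir155hg and the 30 measured genes on each side of it in chromosomal order, 1 value per gene. Orange marks Mir155hg and the listed neighbours, open symbols genes above the floor on 1 array only, the grey band the probe set SD of 0.29, and dashed lines 2-fold. Mir155hg, Mrpl39 and Jam2 are adjacent at -2.83, -2.05 and -1.03, and Bach1 at 1.18 lies above the upper line.

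The scaling of the arrays sets the size of all these values. Under quantile normalization, loess, median centring, scaling on hybridisation controls and no scaling, 9 of the 16 probe sets were lower each time: those of Mir155hg, Mrpl39, Jam2 and Samsn1, and 3 of the 4 of Nrip1. The 2 of Usp25 and 1 of Gabpa were higher each time. The other 4, of Nrip1, Gabpa and App, changed direction. Of all measured probe sets on the arrays, 49.1% were lower after quantile normalization. That share was 25.5% with hybridisation controls and 7.98% without scaling, where a higher value was thus the usual direction. Without scaling 2 probe sets of the listed genes were at least 2-fold lower and 1 higher, where 0.105% and 7.00% of all measured probe sets were. Mir155hg was then at -2.26 and Mrpl39 at -1.46 and -0.61. Jam2 probe set 1449408_at was past 2-fold under quantile normalization (-1.03) and loess (-1.01). It fell short with median centring (-0.99), hybridisation controls (-0.94) and no scaling (-0.78).

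**Figure D5:**
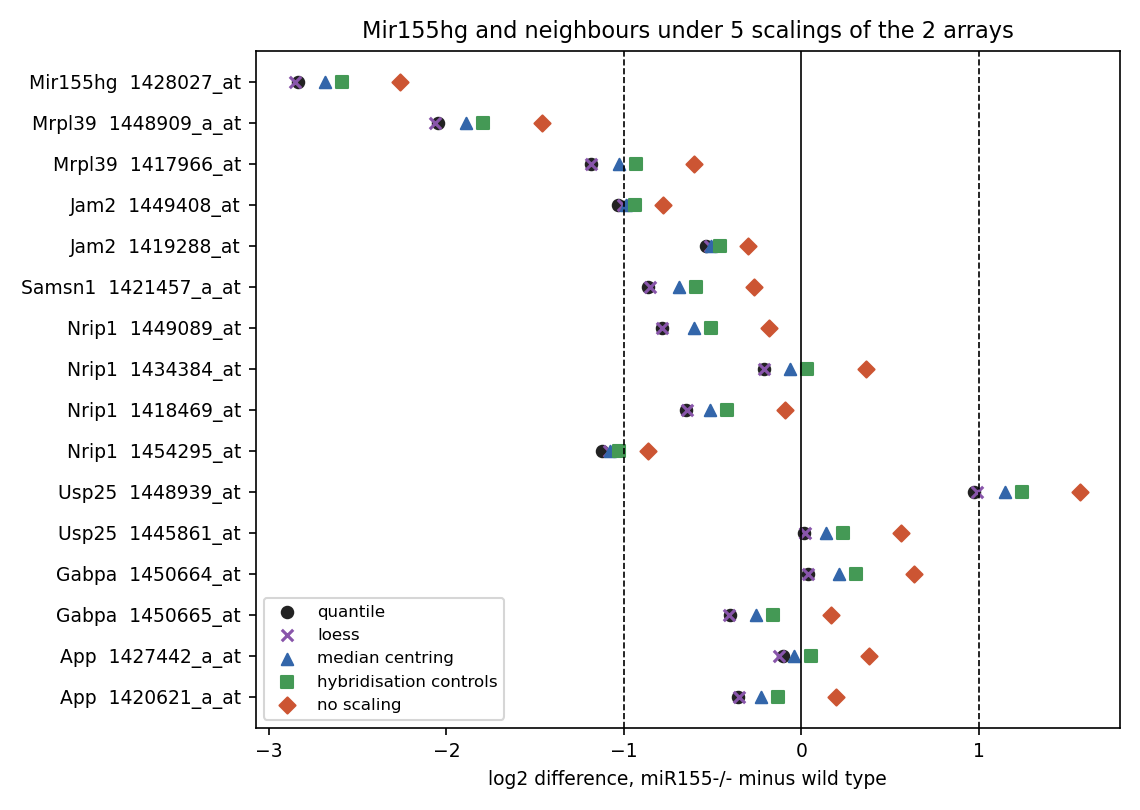
Log2 difference (knockout minus wild type) of the 16 measured probe sets under 5 scalings of the arrays, with dashed lines at 2-fold. Mir155hg stays between -2.85 and -2.26, whereas Samsn1 moves from -0.87 to -0.27 and both App probe sets cross 0 without scaling.

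The genes whose signals were most like those of Mir155hg, by Euclidean distance over the 2 arrays in log2 signal, were Ighm (734.1 and 142.3 in its probe set of highest mean signal, distance 0.65), Mrpl39 (0.93) and Stat4 (785.5 and 301.0, 1.06). For Mrpl39 they were Stat4 (0.67), Taok1 (912.3 and 473.9, 0.79) and Tspan13 (886.0 and 466.5, 0.80). For Jam2 they were Mm2pr, Oas1e and Ufsp1, all above the floor in wild-type cells only, at 135.0 to 136.7. With 2 arrays such likeness describes 2 numbers per gene.

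Ighm is a B cell transcript, with 5 of its 8 measured probe sets lower and 3 higher. After normalization the measured markers of B and plasma cells and of mast cells and basophils were lower. Markers of most other cell types went both ways. Of 8 B and plasma cell markers 5 were measured, all lower under each of the 5 scalings, with signals that summed to 1621 (wild type) and 365.6 (knockout), values under the floor entering the sums as measured. Of these 5, Cd79b, Ms4a1 and Mzb1 were above the floor in wild-type cells only and could count only as lower. Cd79a and Pax5 were at or below the floor on both arrays. Of 8 mast cell and basophil markers 6 were measured and all were lower (3 of 5 on the deposited values), with summed signals of 3317 and 1740, most of it from Hdc. Of these 6, Mcpt8, Cpa3 and Ms4a2 were above the floor in wild-type cells only and could count only as lower. Kit was at -0.05, and Fcer1a was at or below the floor. The part of B, plasma and mast cells and basophils in the values of the listed genes was not tested. All 12 dendritic cell markers were measured, 10 of them lower (4 of 12 on the deposited values), and their signals summed to 69693 and 59034. Furthest from 0 were the transcription factor gene Irf8 (-0.66), the chemokine gene Ccl22 (-0.64), the maturation marker gene Cd83 (-0.64) and the chemokine receptor gene Ccr7 (-0.55), while the integrin gene Itgax (0.31) and Flt3 (at least 1.31-fold higher) were the 2 higher ones.

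Macrophage and monocyte markers had nearly equal sums of 32519 and 33068, but 5 of the 7 measured were higher (6 of 7 on the deposited values). The mannose receptor gene Mrc1 (138.5 and 288.0) was 2.08-fold higher, the chemokine receptor gene Ccr2 1.78-fold and the receptor kinase gene Mertk 1.75-fold, while the LPS co-receptor gene Cd14 was lower (10690 and 7911). Granulocyte markers summed to 6793 and 7787, with 6 of the 7 measured lower (1 of 7 on the deposited values) and the calprotectin subunit gene S100a8 higher (4517 and 6093). Among the 6, Ltf was above the floor in wild-type cells only and could count only as lower. T and NK cell markers summed to 709.7 and 651.2, with 3 of the 4 measured higher under each scaling and Thy1 lower (256.4 and 118.1). Among the 3, Cd4 was above the floor in knockout cells only after normalization and could count only as higher. Erythroid markers summed to 5456 and 3075, most of it from the carbonic anhydrase gene Car2 (4788 and 2348), with Epor lower (100.6 and 67.6) and the transferrin receptor gene Tfrc higher (567.9 and 659.7) after normalization. The part of these cells in the values of the locus was not tested. Cd3e, Cd3g and the globin gene Hba-a1 were at or below the floor.

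The factors that induce Mir155hg were taken from a list of 14 genes, mostly NF-kB and AP-1 subunits. Of the 12 measured 8 were lower and 4 higher, none by 2-fold, with a median of -0.24 beside 0.01 over all genes. On the deposited values 1 of 12 was lower. The NF-kB subunit genes Rel (473.1 and 304.4, -0.64) and Nfkb2 (1096 and 730.7, -0.58), the AP-1 gene Junb (-0.49) and the AP-1 gene Jund (0.39) were furthest from 0. Among other microRNA host transcripts Mir22hg was measured, at 1346 and 1242 (-0.12). Mir99ahg, which lies between Usp25 and Cxadr, was at or below the floor.

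After quantile normalization, families and partners of the neighbours held no gene past 2-fold other than Jam2 and Mrpl39. Without scaling, under the shift of 0.54, some were past 2-fold higher, among them Ppargc1b (1.20), Polrmt (1.17) and Sash1 (1.03). Of 16 measured genes of APP processing 10 were lower (3 of 15 on the deposited values), with Apba1 (-0.61), the gamma-secretase subunit gene Ncstn (-0.57), Apbb1 (-0.46) and Apbb3 (at least 1.34-fold lower) furthest from 0. Of 12 GABP subunits and mitochondrial biogenesis regulators 5 were lower (0 of 12 on the deposited values), with Ppargc1b (0.64), the mitochondrial RNA polymerase gene Polrmt (0.59), Ppargc1a (at least 1.48-fold higher) and Tfb1m (0.32) furthest. Of 13 measured NRIP1 partners and receptor genes, Nrip1 included, 7 were lower (1 of 11 on the deposited values), and Nr1h3 (0.41), Hdac3 (-0.39) and Ppard (0.15) came after Nrip1.

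Of 6 genes of the Samsn1 family and its partners 3 were lower (1 of 6 on the deposited values), with Sash1 at 0.41 and Sash3, the lymphocyte adaptor of the same family, at -0.37. Of 7 measured genes of the USP25 list 4 were lower (0 of 7 on the deposited values). The USP25 paralogue gene Usp28 was at 0.07, and the reported USP25 substrate genes Birc2 and Traf6 were at 0.33 and -0.30. In the BTG and TOB family and its CCR4-NOT deadenylase partners, 5 of 9 measured genes were lower (0 of 9 on the deposited values), from -0.29 (Cnot6l) to 0.14 (Tob1). Of the 4 measured probe sets of Cnot6l, 3 were higher.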

How the data were processed

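Per the labels' protocols, biotin-labelled cRNA was made from 6 ug total RNA by the standard Affymetrix procedure. The authors deposited a linear signal intensity for 45101 probe sets per array. The sources used here do not give the algorithm, detection calls or scaling. Gene names came from the platform annotation, updated through gene identifiers of RefSeq (GRCm38.p6), which matched 34741 of 34945 single-gene probe sets. That table also gave the order of the genes and which are protein-coding, and no distances between genes were used.

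Leaving out 64 controls, 45037 probe sets were put on a log2 scale and quantile normalized, since the array medians differed by more than 10%. For differences, lower values were raised to the floor, and sums over marker lists used them as measured. Each gene was read from its probe set of highest mean signal, and probe sets of 1 gene could disagree in direction. In Mrpl38, Ncstn, Apbb1, F11r, Jam3, Vsir and Tfrc 1 was lower and 1 higher. In Traf6 2 of 4, in Taok1 3 of 6, in Ccr2 1 of 4 and in Mm2pr 1 of 2 were lower. Python 3.11.15, pandas 2.3.3 and statsmodels 0.14.6 (loess, span 0.3) were used, and the steps were tested on simulated data. With 1 array per genotype no p-value was computed, and the number of arrays limits the precision. Genes and lists were chosen with earlier results of these data known. The text names every gene of the locus list, up to 4 genes of largest difference from each other list and from the window, the 3 genes likest to Mir155hg, Mrpl39 and Jam2, and defining or leading cell markers. Other scalings, floors, size rules and windows were tried.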

Additional observations from a re-analysis of the deposited data

How the results depend on the processing

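No paired analysis was possible because each genotype has 1 array. A value counted as moved where it shifted by more than the probe set SD of 0.29, or a count by more than 1.5 times. No difference of at least 2-fold reversed. Without scaling Mir155hg was at -2.26, Mrpl39 at -1.46, the median of the 5 other listed genes measured at 0.38 (from -0.10) and that of the chromosome 16 neighbours at 0.65 (from 0.11), under a shift of 0.54. With the floor at the 75th percentile Mir155hg was at -2.36, a bound, and Jam2 was not measured. With probe sets averaged Mrpl39 was at -1.62, and with no floor Jam2 was at -1.34. With 5 genes on each side the neighbours' median was -0.23. With the share of all measured probe sets in brackets, the 5 at least 2-fold lower became 2 without scaling (0.105%), 3 with hybridisation controls (0.325%), 3 with the higher floor (0.411%), 8 with no floor (8.28%) and 8 at 1.5-fold (4.67%). The 0 at least 2-fold higher became 1 without scaling (7.00%), 1 with median centring (1.01%), 1 with hybridisation controls (1.58%), 1 at 1.5-fold (4.77%) and 3 with no floor (8.53%). The other 39 comparisons of these results did not move. Signal near the floor limits Jam2 and Cxadr.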

Other observations

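Adjacent genes were counted over the whole genome after the values around Mir155hg had been seen. Of 11836 pairs of neighbouring measured genes, 3 had both genes at least 2-fold lower in the knockout and 0 had both at least 2-fold higher. The pairs Mir155hg with Mrpl39 and Mrpl39 with Jam2 share Mrpl39, and their genes were picked on this contrast. Jam2 counted with a bound of -1.03. It was short of 2-fold with median centring (-0.99), hybridisation controls (-0.94) and no scaling (-0.78). The remaining pair was Btla, an inhibitory lymphocyte receptor gene (-1.11), and Cd200, which encodes a ligand that restrains myeloid cells (-1.10). Both values lie near the 2-fold threshold after quantile normalization, and other scalings are not given for this pair. This pair also lies on chromosome 16, outside the 30 measured genes on each side of Mir155hg.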
